A study of Mus musculus with 6 samples.

Results

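The 8 genes described here encode the transcription factors that hold hepatocytes in their identity: Hnf4a, Cebpa, Cebpb, Foxa1, Foxa2, Foxa3, Onecut1 and Prox1. They were chosen by name, and every non-control array probe whose accession RefSeq (GRCm38.p6) gives to one of them is reported: 9 of the 55681 probes, for 8 of the 20284 genes that could be named. Foxa2 had 2 probes and each of the other 7 genes had 1. RNA from 6 livers was labelled with Cy3 and read on 1-colour Agilent arrays, an array for each liver. The WT group held 3 male mice and the Gα12 KO group 3 male mice lacking Gα12, a G protein α subunit encoded by Gna12 that relays signals from cell surface receptors. All were 8 weeks old, on a 95% C57BL/6 background with 129/Sv as the other strain, and were killed after a night without chow. The labels give neither the deleted part of Gna12 nor the tissues it was deleted in.

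HNF4A is a nuclear receptor that sits at many hepatocyte promoters, and its loss from the liver disables lipid transport, bile acid and clotting factor genes. C/EBPα and C/EBPβ are leucine zipper proteins, the first tied to the resting adult hepatocyte and its metabolic genes, the second to fasting hormones, regeneration and the acute phase. FOXA1, FOXA2 and FOXA3 are forkhead proteins that can open closed chromatin, ONECUT1 (HNF6) acts in hepatocytes and in bile ducts, and PROX1 is a homeobox protein that restrains HNF4A and NR5A2 and also marks lymphatic endothelium. These factors bind at each other's genes, so that they are often described as a network.

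The stretches just upstream of RefSeq start sites of 3 members are shown. They were chosen after the levels were seen: Cebpa and Foxa3 had nearly the same profile across the 6 livers, while Foxa2 ran the other way. Not all listed starts of Foxa2 are shown. The sequences come from RefSeq, build GRCm38.p6, and each is the 250 bases before a start, 5′ to 3′ on the gene's strand. Capitals mark matches, on either strand, to the TATA box letters TATAAA or to an ONECUT-like core. The letters searched for that core were ATNGAT.
Cebpa (chr7:35119043-35119292, + strand): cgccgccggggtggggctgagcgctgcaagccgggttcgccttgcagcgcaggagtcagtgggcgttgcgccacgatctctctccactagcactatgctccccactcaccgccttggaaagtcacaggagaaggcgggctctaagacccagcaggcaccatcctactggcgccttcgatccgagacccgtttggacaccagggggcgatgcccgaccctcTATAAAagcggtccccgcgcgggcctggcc
Foxa3 (chr7:19023540-19023789, - strand): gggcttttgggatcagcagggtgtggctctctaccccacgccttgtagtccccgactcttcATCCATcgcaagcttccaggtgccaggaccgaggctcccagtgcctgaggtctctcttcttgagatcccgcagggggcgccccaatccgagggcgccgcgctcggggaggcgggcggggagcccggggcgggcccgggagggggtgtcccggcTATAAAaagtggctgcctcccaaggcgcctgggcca
Foxa2 (chr2:148046970-148047219, - strand): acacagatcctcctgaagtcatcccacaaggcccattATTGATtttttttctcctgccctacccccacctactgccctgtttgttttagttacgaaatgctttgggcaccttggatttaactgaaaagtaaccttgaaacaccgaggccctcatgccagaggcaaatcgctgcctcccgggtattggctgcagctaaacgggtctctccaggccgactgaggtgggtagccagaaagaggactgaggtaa
The TATA letters begin 30 bases before the start in Cebpa and 36 bases before it in Foxa3, 34 bases before the outer of 2 starts in Prox1 and 208 bases before another Foxa2 start than the one shown (chr2:148045465-148045714). Of the 12 listed starts of the 8 genes, 4 had TATAAA in this window, where 12.4% of the 32851 windows of all genes had it. The ONECUT-like core lay in 3 of the 12 windows (18.9% of all windows), in those of Hnf4a, Foxa2 and Foxa3. The forkhead-like core, TNTTTAC, lay in 1 (10.9% of all windows), that of Foxa1, 141 bases before its start. TTGCNNAA, a C/EBP-like core, and CAAAGTCC, an HNF4-like one, lay in 0 of the 12, against 9.6% and 1.2% of all windows. These matches describe letters and show no binding, and a link between them and the members' levels was not tested. The windows were rich in GC, with a median of 63.4% against 52.4% over all windows.

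Levels below are log2 processed signals after subtraction of each array's own 75th percentile, so that 0 is a fairly bright probe, and differences are knockout minus WT. Levels of different probes cannot be set against each other. The software marked between 20953 and 28752 probes per array as well above background, and 23132 probes that were so marked on at least 3 of the 6 arrays were tested. All 8 genes passed that filter, Onecut1 by exactly 3 arrays. WT replicates 1 and 2 stood apart from the other 4 livers: the 7 Gapdh probes, which read a single abundant transcript, spanned 9.58 and 7.79 log2 units there, against 4.01 in WT replicate 3 and 4.36 to 4.87 in the knockout livers. The members' levels and differences are therefore given with WT replicate 3 apart. The probe for Gna12 was well above background in WT replicate 3 only, and its WT levels of -3.48, -4.55 and -0.89 overlapped the knockout levels of -4.91, -4.62 and -3.47, so it is a weak check of the labels. The WT arrays lay in another row of the slide than the knockout arrays, so row and genotype cannot be told apart.

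Of the 8 factors, 5 had higher mean levels in the knockout (Cebpa, Cebpb, Foxa3, Onecut1, Prox1) and 3 had lower ones (Hnf4a, Foxa1, Foxa2). None passed limma's test at an adjusted p below 0.05. Limma likewise called 0 of the 12297 tested genes (0%) and 0 of the 23132 probes. At an unadjusted p below 0.05, 4 of the 8 were higher in the knockout and 0 lower (Cebpa, Cebpb, Foxa3 and Onecut1), where 20.6% of all genes passed, 3.98% higher and 16.6% lower. The groups did not overlap for 1 of the 8, Cebpb, against 25.5% of all genes (21.1% with the knockout lower). The 4 became 0 without WT replicate 1, knockout replicate 1 or knockout replicate 2, 1 without WT replicate 2 (Cebpb) and 1 without knockout replicate 3 (Onecut1), and it was 0 with the Gapdh range of each array as a covariate. Such counts fell over all genes too: 490 of 12297 were higher with all livers, 163 without WT replicate 1 and 127 without WT replicate 2. The number higher was 214, 151 and 287 without knockout replicates 1, 2 and 3, and 203 with the covariate. A difference above 0 was found in 27.7% of all genes, whose median difference was -0.49, and the median over the 8 members was 1.17.

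**Figure D1:**
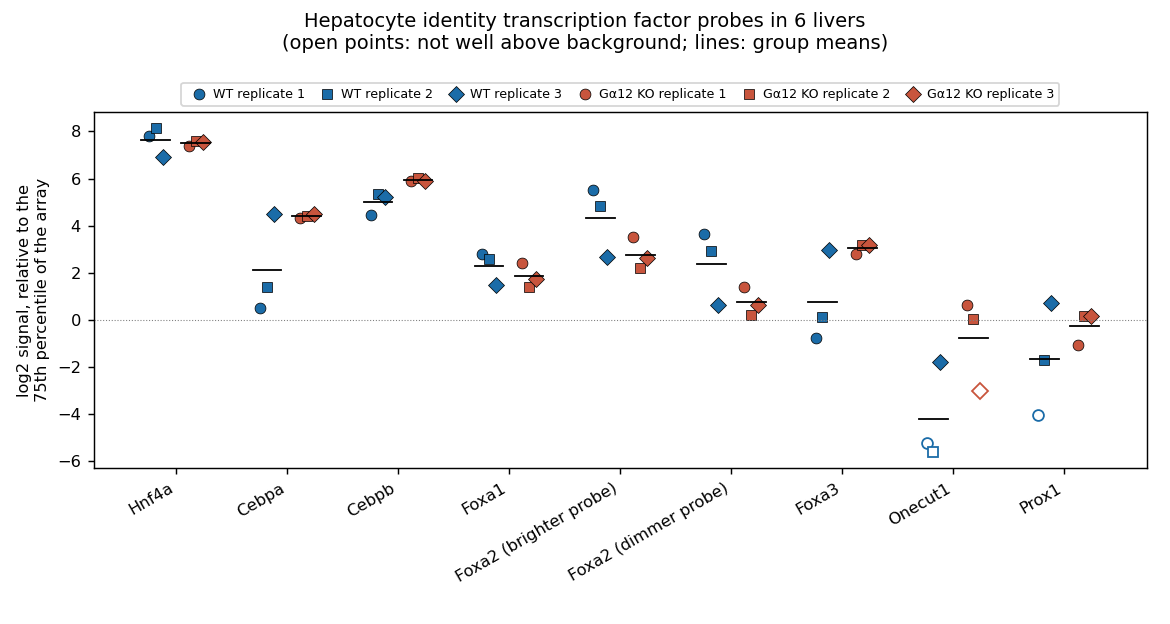
Log2 signal above or below the array's 75th percentile (vertical axis) for the 9 probes (horizontal axis) in 3 WT (blue) and 3 Gα12 KO (red) livers, with a marker shape for each replicate, open where the signal was not well above background, and a line at each group mean. For Cebpa and Foxa3 the WT replicates 1 and 2 lie far below the other 4 livers, for both Foxa2 probes they lie above them, and only for Cebpb do all 3 knockout livers lie above all 3 WT livers.

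Hnf4a, the nuclear receptor gene of the network, had log2 levels of 7.83, 8.13 and 6.92 in WT replicates 1 to 3 and of 7.39, 7.58 and 7.53 in knockout replicates 1 to 3. The knockout livers lay between the WT livers, with WT replicate 3 below all of them. WT averaged 7.62 ± 0.63 (SD, n = 3) against 7.50 ± 0.10 for Gα12 KO, which differ by -0.12 (SE 0.39, 95% interval -1.03 to 0.78; limma adjusted p = 0.836). Its sign changed with the scaling and with the livers used: the difference was 0.02 with arrays scaled to the median of the tested probes, 0.39 after quantile normalization, -0.48 without WT replicate 3 and 0.58 against that liver alone.

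Cebpb, which is known to be induced in fasting and inflammation, was the member whose groups separated. Its levels were 4.44, 5.32 and 5.21 in WT replicates 1 to 3 and 5.91, 6.03 and 5.88 in the knockout. Every knockout liver was above every WT liver, WT replicate 3 included, and the 3 knockout livers lay within 0.15 of each other. The means were 4.99 ± 0.48 (SD, n = 3) and 5.94 ± 0.08, a difference of 0.95 (SE 0.35, 95% interval 0.13 to 1.76), or 1.93-fold. Groups that separated with the knockout higher were found in 4.42% of all genes. The difference did not pass the test over all probes (limma adjusted p = 0.235), and it was 0.73 against WT replicate 3 alone and 1.05 without it.

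Cebpa, the gene of the other leucine zipper factor, divided the WT livers instead. Its levels were 0.51, 1.40 and 4.48 in WT replicates 1 to 3 and 4.32, 4.42 and 4.48 in the knockout. Relative to the knockout mean, WT replicates 1 and 2 stood at -3.89 and -3.01 and WT replicate 3 at 0.07, within the range of the knockout livers. The difference over all livers was 2.28 (SE 0.92, limma adjusted p = 0.235). Without WT replicate 3 it was 3.45 (limma adjusted p = 0.00368), and with WT replicate 3 as the only WT liver it was -0.07 (95% interval half-width 0.54).

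The 3 forkhead genes did not run together. Foxa3, which keeps glucose transporter and gluconeogenic genes active in the adult liver, followed the profile of Cebpa, at -0.79, 0.12 and 2.97 in WT replicates 1 to 3 and 2.81, 3.15 and 3.18 in the knockout. Relative to the knockout mean, WT replicates 1 and 2 stood at -3.83 and -2.93 and WT replicate 3 at -0.08, within the knockout range. Its difference of 2.28 (SE 0.87, limma adjusted p = 0.235) became 3.38 without WT replicate 3 (limma adjusted p = 0.00406) and 0.08 with that liver as the only WT liver.

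Foxa2, the forkhead gene linked to fasting lipid use, ran the opposite way on both of its probes. The brighter probe read 5.52, 4.83 and 2.66 in WT replicates 1 to 3 and 3.50, 2.18 and 2.62 in the knockout. The dimmer probe read 3.64, 2.90 and 0.62 in the WT livers and 1.41, 0.21 and 0.62 in the knockout. The gap between the probes stayed between 1.88 and 2.09 in all 6 livers, so that both probes read alike, with WT replicates 1 and 2 highest, knockout replicate 1 next and knockout replicate 2 lowest. The differences were -1.57 (SE 0.74) and -1.64 (SE 0.76), with limma adjusted p-values of 0.242 and 0.241. Without WT replicate 3 they were -2.41 and -2.52 (limma adjusted p = 0.00914 and 0.00742), and with it as the only WT liver 0.11 and 0.13.

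Foxa1, the paralogue that shares the opening of chromatin with Foxa2 in liver development, had a smaller spread in the same sense. Its levels were 2.77, 2.58 and 1.47 in WT replicates 1 to 3 and 2.40, 1.39 and 1.75 in the knockout. WT replicates 1 and 2 were again highest, knockout replicate 1 stood closer to them than to the other knockout livers, and WT replicate 3 lay within the knockout range. The difference was -0.43 (SE 0.46, 95% interval -1.51 to 0.65; limma adjusted p = 0.520). It was -0.83 without WT replicate 3 and 0.37 against that liver alone.

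Onecut1 was close to the background, and its difference is the least certain of the 8. Its levels were -5.25, -5.61 and -1.79 in WT replicates 1 to 3 and 0.63, 0.05 and -3.04 in the knockout, and only WT replicate 3 and knockout replicates 1 and 2 had a signal well above background. WT replicate 3 lay inside the knockout range, which spanned 3.66 log2 units. The difference of 3.43 (SE 1.24, limma adjusted p = 0.235) therefore rests partly on signals not well above background, and normexp background correction reduced it to 1.50. It was 4.64 without WT replicate 3, and 1.003 against that liver alone with a 95% interval of 4.47 to either side.

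Prox1, which encodes a corepressor of HNF4A, had levels of -4.03, -1.70 and 0.73 in WT replicates 1 to 3, the first not well above background, and of -1.09, 0.14 and 0.16 in the knockout. The WT livers spanned 4.76 log2 units and enclosed the knockout livers, with WT replicate 3 above all of them. The difference was 1.40 (SE 1.08, limma adjusted p = 0.381), it was 2.60 without WT replicate 3 and -0.99 against that liver alone, and 0.22 without WT replicate 1.

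**Figure D2:**
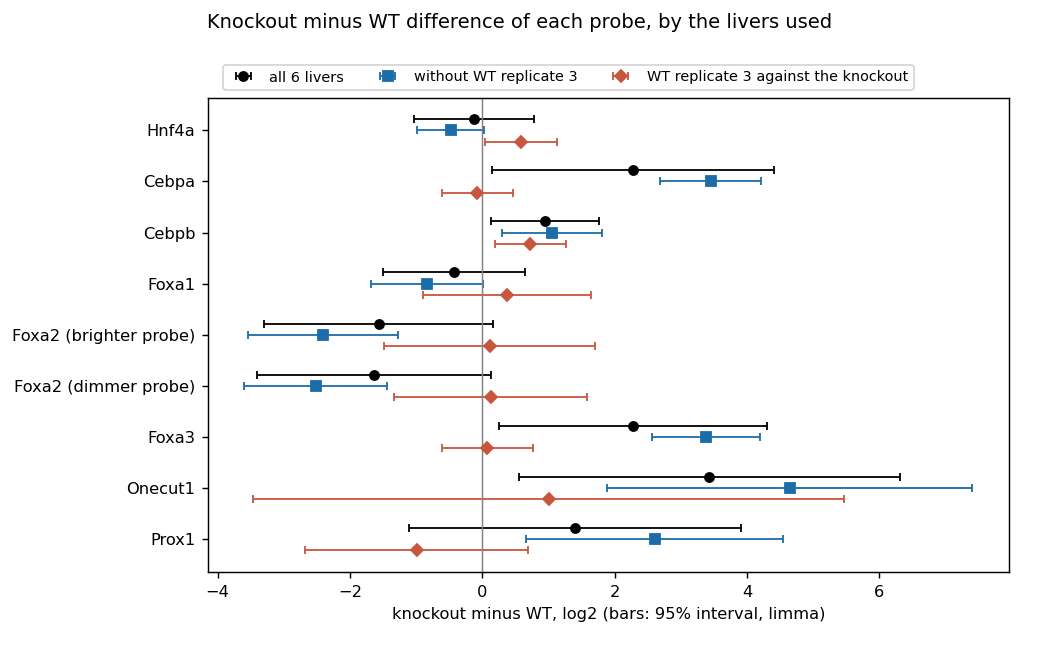
Knockout minus WT difference in log2 units (horizontal axis) of the 9 probes (vertical axis) with 95% limma intervals as bars, for all 6 livers (black circles), without WT replicate 3 (blue squares) and with WT replicate 3 as the only WT liver (red diamonds). For Cebpa, Foxa3 and both Foxa2 probes the red diamonds lie within 0.13 of 0 while the blue squares lie beyond 2.4 in size, and the 3 estimates for Cebpb, at 0.95, 1.05 and 0.73, lie close together.

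Across the set, the spread within WT was the dominant feature. The WT SD exceeded the knockout SD in 8 of the 8 genes, as it did in 85.5% of all genes, and was at least 1 log2 unit in 5 of the 8 (Cebpa, Foxa2, Foxa3, Onecut1, Prox1), against 17.1% of all genes. The median WT SD was 1.73 over the members and 0.65 over all genes, and the median knockout SD 0.36 and 0.19. Limma's SEs, intervals and p-values assume an equal spread in both groups, which these SDs do not show. Within the knockout, Hnf4a, Cebpa and Cebpb had ranges of 0.19, 0.16 and 0.15, Foxa3 had 0.37, and Foxa1, Foxa2 (1.32 and 1.20), Prox1 (1.25) and Onecut1 varied by more than 1 log2 unit. WT replicate 3 lay outside the knockout range for 3 of the 8 (Hnf4a and Cebpb below, Prox1 above), against 59.4% of all genes.

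Without WT replicate 3, limma called 6 of the 8 at an adjusted p below 0.05, 5 higher in the knockout and Foxa2 lower. That fit called 62.2% of all genes, 11.5% higher and 50.6% lower. With WT replicates 1 and 2 left out, limma called 0 of the 8. In that fit Hnf4a and Cebpb, 2 of the 8, had an unadjusted p below 0.05 (0.0421 and 0.0195), against 6.78% of all genes, with differences of 0.58 and 0.73 and adjusted p-values of 0.668 and 0.634. A single WT liver then stands for its group, and the spread comes from the knockout livers alone.

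The spread of the Gapdh probes moved with several of these levels. The livers with the widest spread, WT replicates 1 and 2, had the lowest Cebpa, Foxa3, Onecut1 and Prox1 and the highest Hnf4a, Foxa1 and Foxa2. Among the Gapdh probes themselves, 2 differed by 0.02 and -0.04 between the genotypes and 5 by 0.91 to 2.56, so that probes of a single transcript diverged. With the Gapdh range as a covariate, Cebpa and Foxa3 differed by 0.51 and 0.61, the Foxa2 probes by -0.30 each, Onecut1 by 1.95, Prox1 by -0.61, Foxa1 by 0.16 and Hnf4a by 0.33. Cebpb changed least in proportion, to 0.68 (limma adjusted p = 0.587). With 7 of the 8 genes read by a single probe, divergence along a transcript could not be checked for them. Where the Foxa2 probes lie along their transcript is not known here, so their steady gap does not check it either. The part of RNA quality in these differences was not tested.

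**Figure D3:**
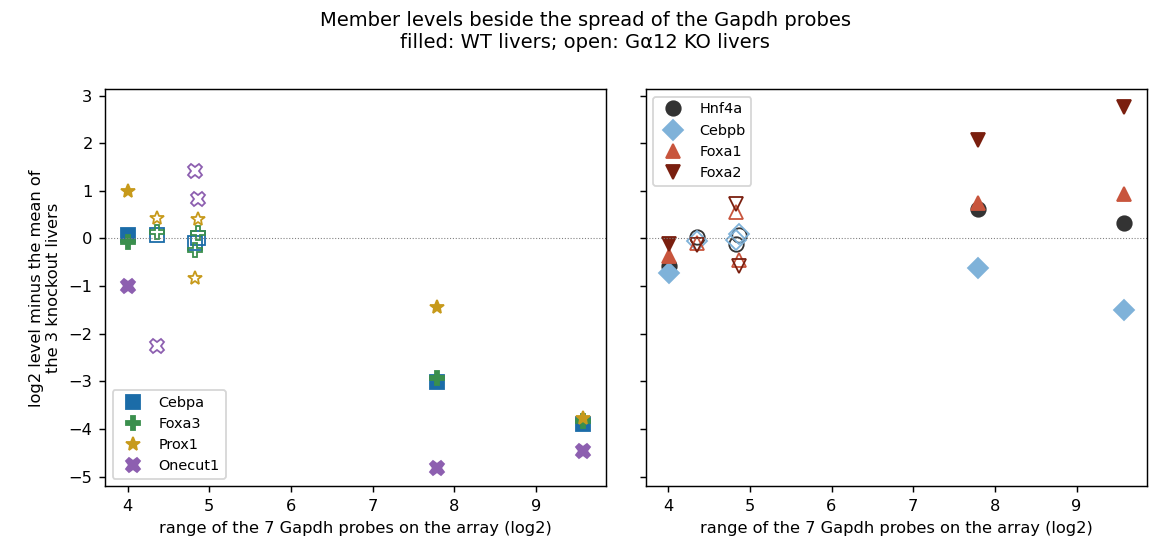
Log2 level minus the mean of the 3 knockout livers (vertical axis) against the range of the 7 Gapdh probes on the same array in log2 units (horizontal axis), for WT livers (filled) and Gα12 KO livers (open), with Foxa2 shown by its brighter probe. At Gapdh ranges of 7.79 and 9.58 Cebpa, Foxa3, Prox1 and Onecut1 (left panel) lie between -4.83 and -1.44 relative to it, whereas WT replicate 3, at 4.01, lies among or near the knockout livers for most members.

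The genes with the most similar profile over the 6 arrays were found by Pearson's r among 12296 other named genes, as a description only, since 2 livers stand apart and set most of each r. Mrm3, a mitochondrial rRNA methyltransferase gene, came first for both Cebpa (r = 0.9994) and Foxa3 (r = 0.9993), with levels of -0.79, -0.39 and 0.82 in the WT livers and 0.78, 0.87 and 0.85 in the knockout. The nearest profile was that of Cd2bp2 for Hnf4a (r = 0.998), Slc35c1 for Cebpb (0.991), Vpreb3 for Foxa1 (0.986), Stx12 for Foxa2 (0.998) and Fgf11 for Onecut1 (0.991). An r above 0.95 was shared by 1148 genes for Foxa2, 724 for Cebpa and 697 for Foxa3, but by 30 for Cebpb and 40 for Foxa1. The profiles of Foxa2, Cebpa and Foxa3 were thus common on these arrays, and that of Cebpb was less so.

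Other factors of the liver network were read from a list of 35 genes, of which 32 were tested. None was called by limma, while 1 had an unadjusted p below 0.05 with the knockout higher and 7 (21.9% of the list) with it lower, against 3.98% and 16.6% of all genes, with a median difference of -0.52 against -0.49 over all genes. Creb3l2, a membrane-bound stress factor gene, was at -3.76, -3.86 and -2.33 in WT, where only 1 liver was well above background, and at -0.79, -0.41 and -1.13 in the knockout. Tbx3, a T-box repressor gene active near the central vein, averaged 4.27 ± 0.85 (SD, n = 3) in WT livers against 2.75 ± 0.48 in Gα12 KO livers. For each of these genes the groups did not overlap, in opposite directions, which held for 12 of the 32 genes, 37.5% of this list against 25.5% of all genes. Nfib and Zbtb20 differed by -1.28 (SE 0.43) and -1.09 (SE 0.41), with WT replicate 3 above the knockout livers in both. Without WT replicate 3 limma called 5 of the 32 higher and 16 lower, where that fit called 11.5% and 50.6% of all genes. Against that liver alone the list's median difference was -0.04, where it was -0.03 over all genes.

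The genes that these factors are known to drive were counted in 3 further lists, which share some genes. Of 34 tested HNF4A targets, unadjusted p-values below 0.05 came with the knockout higher in 1 and lower in 4, or 2.94% and 11.8% of the list, against 3.98% and 16.6% of all genes. Limma called 0, and the median was -0.16, against -0.49 over all genes. The unadjusted counts were 0 and 0 without WT replicate 1 or WT replicate 2. Over all genes they were 163 higher and 666 lower without WT replicate 1, and 127 and 581 without WT replicate 2. Without WT replicate 3 limma called 5 of the list higher and 11 lower, where that fit called 11.5% and 50.6% of all genes. Against that liver alone the list's median difference was 0.01, where it was -0.03 over all genes. F13b, the B chain of clotting factor XIII, averaged 6.22 ± 0.84 (SD, n = 3) in WT livers against 4.88 ± 0.18 in Gα12 KO livers, and the groups did not overlap. Slco1b2, a hepatocyte uptake carrier gene, and Mttp, which loads lipid on apolipoprotein B, differed by -1.15 (SE 0.42) and -1.05 (SE 0.41), again with WT replicate 3 above the knockout livers. Apoa4 repeated the profile of Cebpa, at -3.20, -2.90 and 1.91 in WT and 1.76, 2.18 and 1.94 in the knockout.

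Of 24 tested C/EBP targets, unadjusted p-values below 0.05 came with the knockout higher in 6 and lower in 0, or 25% and 0% of the list against 3.98% and 16.6% of all genes, and the list's median was 0.12. The 6 became 3 without WT replicate 1 and 3 without WT replicate 2, while over all genes the 490 higher became 163 and 127. Without WT replicate 3 limma called 7 of the list higher and 5 lower, where that fit called 11.5% and 50.6% of all genes. The list's median was then -0.02, where it was -0.77 over all genes. Against WT replicate 3 alone the list's median difference was 0.17, where it was -0.03 over all genes. With the Gapdh range as a covariate, 4 of the 24 had an unadjusted p below 0.05 with the knockout higher and 0 with it lower. Over all genes that fit gave 203 higher and 824 lower. Ucp2, a mitochondrial carrier gene, was at -2.60, -2.32 and -0.51 in WT and -0.28, -0.40 and 0.12 in the knockout, and Tat, the tyrosine aminotransferase gene, at 5.72, 6.89 and 7.39 against 8.08, 8.16 and 7.92. The acute phase genes Lcn2 and Saa1 differed by 1.58 (SE 0.34) and 2.01 (SE 0.57). In these 4 genes and in Fga all knockout livers were above all WT livers, whereas in G6pc and F9 all were below them; these 7 are 29.2% of the list, against 25.5% of all genes. For Fga the margin was narrow, with WT replicate 3 at 7.611 and knockout replicate 3 at 7.617, while WT replicates 1 and 2 stood at 4.38 and 6.04. Fga, G6pc and F9 were chosen after their values were seen. With WT replicate 3 as the only WT liver, 5 of the 24 had an unadjusted p below 0.05 with the knockout higher and 0 with it lower, against 2.72% and 4.06% of all genes. In that fit a single WT liver stands for its group, and such counts are not given for the other lists singly. They therefore do not set this list apart from the others. With all 6 livers, none of the 24 passed limma over all probes (adjusted p of 0.235 for Lcn2). The link of this list to Cebpb was not tested.

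Of 23 tested targets of the FOXA factors and ONECUT1, a list that holds the members Foxa2 and Hnf4a, unadjusted p-values below 0.05 came with the knockout higher in 1 (Tat) and lower in 4, or 4.35% and 17.4% of the list. These shares are near those of all genes, 3.98% and 16.6%, and the median was -0.12 against -0.49. Without WT replicate 3 limma called 3 of the list higher and 8 lower, where that fit called 11.5% and 50.6% of all genes. Against that liver alone the list's median difference was 0.11, where it was -0.03 over all genes. Pdk4, a brake on pyruvate oxidation, differed by -1.48 (SE 0.46) and Igfbp1, a secreted IGF-binding protein gene, by -1.53 (SE 0.55). Limma called 0 of these genes. For Pdk4 the groups did not overlap, and for Igfbp1 they did, with WT replicate 3 within the knockout range.

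Markers of hepatocytes were well above background for 15 of 15 genes in every liver, and their summed signal, in multiples of the 75th percentile, was 8606 to 15306 in WT and 10270 to 13489 in the knockout. Bile duct markers, which matter for Onecut1, passed the filter for 5 of 10 genes (Krt7, Epcam, Cftr and Muc1 were among those that did not), with sums of 36.4 to 96.3 in WT and 35.7 to 50.1 in the knockout. The endothelial list, which matters for Prox1, had 10 of 11 genes tested, with sums of 116 to 159 and 103 to 129. Its lymphatic marker Pdpn was well above background in 3 of 3 WT and 0 of 3 knockout livers, at -0.94, -0.62 and -3.02 against -3.64, -4.73 and -3.43. Of the 10 tested genes of that list, 3 had a difference above 0, and the median was -0.50 against -0.49 over all genes. In 5 of the 10 (50%) all knockout livers were below all WT livers, against 21.1% of all genes, and in 0 above them. Among the 3, Kdr, a receptor for vascular growth factors, differed by 2.28 (SE 0.67). Flt4, also found in lymphatic endothelium, differed by 1.13 (SE 0.74), with overlapping groups in both. Kupffer cell markers, 10 of 10 tested, summed to 96.2 to 194.6 in WT and 101.9 to 121.3 in the knockout, and stellate cell markers, 9 of 10, to 110 to 200.3 and 82.7 to 103. Fetal and progenitor markers passed for 7 of 16 genes, with sums of 5.38 to 8.92 and 5.18 to 6.00, and muscle markers for 3 of 8, with 0.50 to 0.67 and 0.53 to 2.66. The brightest probes of a list weigh most in its sum. WT replicate 3 had the lowest WT sum in each of these 7 lists. The groups' sums overlapped for every list except that of stellate cells, where WT replicate 3 stood at 110 and the highest knockout liver at 103. In whole liver a smaller number of cells of a type and less RNA per cell cannot be told apart. The parts of array scaling and RNA quality in these sums were not tested, nor was that of other cell types in the members' levels.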

How the data were processed

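The authors' scans went through Agilent Feature Extraction 10.7.3.1, per the submitters' processing notes. The deposited scanner files hold intensity on a linear scale, positive even for dim spots. No source used here states the software's correction steps. The deposited series matrix holds log2 values that, at 99.7% to 99.9% of probes per array, equal the log2 processed intensity plus a constant for that array (within 0.01). The column medians are 4.42, 4.18, 4.70, 4.31, 4.44 and 4.52, how the constants were chosen is unknown, and 397 values of WT replicate 2 are empty.

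From the processed intensity, log2 values were taken, the 75th percentile of non-control spots was subtracted, control and outlier spots were dropped, and spots of a probe were averaged. Of 55681 probes, 55324 had a value on all arrays. Names came from a RefSeq table by accession (26762 probes matched). The array design refers to another genome build, so the table gave names only. A gene was represented by its brightest tested probe. Knockout was compared with WT with limma 3.58.1 in R 4.3.3 (two-sided, Benjamini-Hochberg over 23132 probes), after a test on simulated data. The number of arrays limits precision. The plan's normexp alternative named a mean signal column; the median signal was used in its place, with an offset of 50.

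The members, lists, tests and alternatives were chosen with earlier results of these data known. The text names all members, the 4 genes of each pathway list with the lowest p, the nearest profile of each member, Gna12 and Gapdh; a few genes that this rule selects are not reported here. Pdpn and other markers outside this rule were named after their values were seen. Replicate numbers are shared by the groups but are not said to pair animals.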

Additional observations from a re-analysis of the deposited data

How the results depend on the processing

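The sign of Cebpb, Foxa3 and Onecut1 held under every alternative that gave a value. Foxa3 was near 0, however, at 0.075, with WT replicates 1 and 2 left out. Leaving out single livers moved Hnf4a between -0.48 and 0.13. With WT replicates 1 and 2 left out, Cebpa differed by -0.073, Hnf4a by 0.58, Foxa1 by 0.37, the Foxa2 probes by 0.13 and 0.11 and Prox1 by -0.99, each opposite in sign to the result over all livers. With the Gapdh range as a covariate, Hnf4a (0.33), Foxa1 (0.16) and Prox1 (-0.61) changed sign, as did Hnf4a with median scaling (0.016), quantile normalization (0.39) and, at 0.13, without WT replicate 2. Members called were 0 under all alternatives except leaving out single livers, where the count ran from 0 to 6 (6 without WT replicate 3). Probes called were 0 to 13123 with single livers left out (13123 without WT replicate 3, 0 otherwise), 1 with normexp and 2 with the filter on all 6 arrays, which drops Onecut1 and Prox1. Averaging all probes of a gene called 7 genes of 12297, all lower in the knockout. At limma's unadjusted p below 0.05, Foxa2 passed as lower with normexp and with the replicate number as a block. Cebpa did not pass with quantile normalization, nor Cebpb with the block. The 22 of 99 pathway list genes at an unadjusted p below 0.05 became 4 to 61 with single livers left out (4 without WT replicate 2, 61 without WT replicate 3), 8 with WT replicates 1 and 2 left out and 10 with the covariate. Over all genes, 490 were higher and 2038 lower at that p, 636 and 1447 with median scaling, and 3154 and 2338 without the filter on dim probes, where higher calls outnumbered lower ones. The median difference over genes was -0.49, and -0.36 with median scaling, -0.38 with normexp, -0.21 after quantile normalization, -0.55 in the deposited matrix and -0.08 without the filter. Same-numbered livers did not deviate together (r = -0.13, 0.01 and -0.04), and with the replicate number as a block limma called 0 probes and 0 members, with 4615 probes at an unadjusted p below 0.05 against 4861. The causes of these changes were not tested.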

Other observations

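Hhex, a homeobox gene of early liver development chosen here after its values were seen, was at 5.97, 5.76 and 3.73 in WT replicates 1 to 3 and 5.04, 3.69 and 3.62 in knockout replicates 1 to 3. Its order of livers resembled that of Foxa2 and Foxa1, with WT replicates 1 and 2 highest and knockout replicate 1 above the other knockout livers. Its difference was -1.03 (SE 0.68, limma adjusted p = 0.323).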
